A study of Glycine max with 12 samples.

Results

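The genes described are 6 neighbouring protease inhibitor genes on soybean chromosome 9, taken by their identifiers out of the 49128 genes of the deposited table: GLYMA_09G162500, GLYMA_09G162800, GLYMA_09G163000, GLYMA_09G163200, GLYMA_09G163300 and GLYMA_09G163800. Their levels were read from 12 RNA-seq libraries of roots of the soybean cultivar Williams 82 (Glycine max), 3 in each of 4 groups: untreated control roots, roots with cadmium (Cd), roots with OP and no Cd (control+OP), and roots with both (Cd+OP). OP is Oceanobacillus picturae, the bacterium in the series title, and the title places the work in Cd stress and seedling growth. A Cd dose of 70 mg/L stands on the labels of all 12 libraries, controls included, so it cannot be tied to a group. No source used here gives plant age, exposure time or how the bacterium was applied. Nor is it stated that replicates were separate plants, so p-values measure only the spread between these libraries, which may be technical. The 6 were chosen with their measured levels in these libraries known, high with Cd and lower with Cd+OP. Their changes for Cd against control, for Cd+OP against Cd and for Cd+OP against control, which is the sum of both, are therefore given as a description, with no test.

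Protease inhibitors are proteins that sit in the active site of protein-digesting enzymes and stop them. In plants they are best known as defence proteins that slow digestion in the gut of feeding insects, as regulators of the plant's own proteases, and as stored protein. Many are switched on by wounding through the hormone jasmonate, which is made from fatty acids by lipoxygenases and the enzymes that follow them.

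All 6 genes carry the same 2 Gene Ontology terms in the table, endopeptidase inhibitor activity and negative regulation of endopeptidase activity. The table describes all 6 as hypothetical proteins and names no inhibitor family. They lie on chromosome 9 between positions 38692452 and 38813412 of the deposited table, a stretch of 121 kb. No source used here names the genome build. GLYMA_09G162500 occupies 38692452 to 38693719, GLYMA_09G162800 occupies 38750467 to 38751247, and GLYMA_09G163000 occupies 38764237 to 38765114. GLYMA_09G163200 occupies 38784214 to 38785079, GLYMA_09G163300 occupies 38786274 to 38787175, and GLYMA_09G163800 occupies 38812459 to 38813412. GLYMA_09G163300 is on the plus strand and the other 5 are on the minus strand, so that GLYMA_09G163200 and GLYMA_09G163300 point away from each other across a gap of 1194 bases. Exon and UTR positions are not used here. Related copies that lie side by side can share reads, and no source used here states how such reads were assigned or whether strand was used, so the separate values of these genes are uncertain to that extent.

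Every member was detected in every library, from 217 to 65273 deposited counts and from 4.004 to 1143 FPKM (fragments scaled to transcript length and library size, a level per length that can be set side by side between genes). All 6 passed the filter on low values, a mean of at least 1 FPKM over the 12 libraries, and would have passed it on any group alone.

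GLYMA_09G162500 stood at 9.37, 7.16 and 9.16 FPKM in the 3 control libraries, 4.004, 4.02 and 5.14 in control+OP, 339, 367 and 365 in Cd, and 15.2, 15.6 and 17.8 in Cd+OP. For GLYMA_09G162800 the values were 9.70, 8.23 and 9.74 FPKM in control, 5.72, 4.77 and 6.67 in control+OP, 469, 501 and 491 in Cd, and 23.9, 22.7 and 22.9 in Cd+OP. GLYMA_09G163000 was the most abundant of these 3 left-hand genes, with 20.1, 16.3 and 16.8 FPKM in control, 7.95, 8.44 and 10.8 in control+OP, 732, 788 and 781 in Cd, and 37.8, 34.1 and 35.0 in Cd+OP. In each of these 3 genes no library of any group overlapped with another group, and the order from low to high was control+OP, control, Cd+OP, Cd.

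GLYMA_09G163200 ordered the groups differently: 5.96, 4.17 and 4.29 FPKM in control, 6.05, 7.34 and 7.22 in control+OP, 431, 434 and 436 in Cd, and 46.3, 45.3 and 44.7 in Cd+OP. Its divergent neighbour GLYMA_09G163300 stood at 12.2, 11.8 and 10.3 FPKM in control, 13.8, 12.8 and 17.9 in control+OP, 645, 672 and 658 in Cd, and 88.8, 86.0 and 79.6 in Cd+OP. In this pair control, not control+OP, was the lowest group, again with no overlap between any groups. GLYMA_09G163800 was the most abundant member in each group, with 74.6, 63.2 and 71.7 FPKM in control, 57.9, 61.9 and 65.7 in control+OP, 1058, 1069 and 1143 in Cd, and 169, 173 and 171 in Cd+OP. Its control and control+OP libraries overlapped, and its Cd and Cd+OP libraries stood apart from them and from each other.

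**Figure D1:**
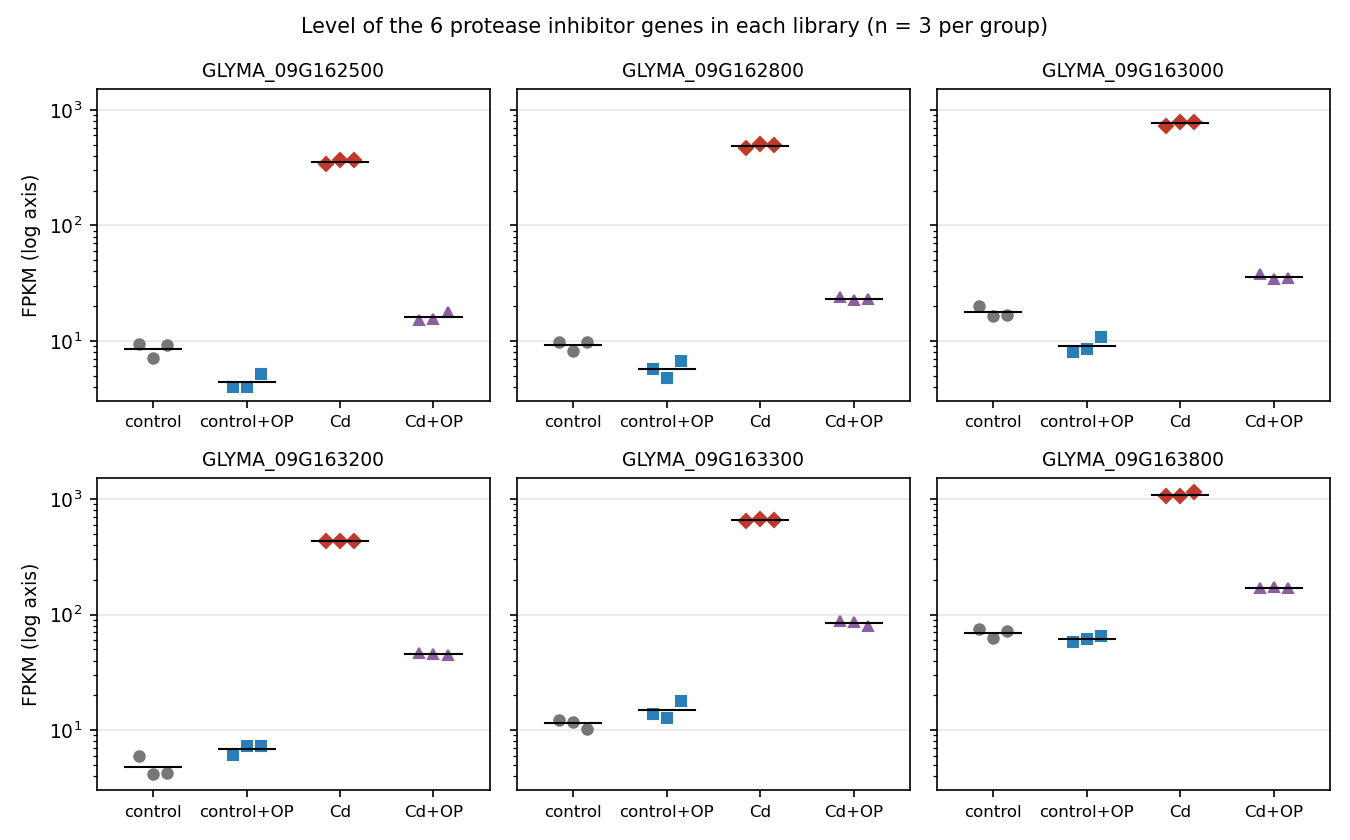
FPKM of each of the 6 genes in the 12 libraries, on a log axis; symbols are single libraries, grouped by treatment, and the short black line is the mean of 3 libraries. In each panel the Cd libraries lie highest, up to 1143 FPKM, the Cd+OP libraries come next, and control and control+OP lie lowest, down to 4.004 FPKM.

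With Cd the mean level was 41.7 times that of control for GLYMA_09G162500, 52.8 times for GLYMA_09G162800 and 43.3 times for GLYMA_09G163000. It was 90.1 times for GLYMA_09G163200, 57.6 times for GLYMA_09G163300 and 15.6 times for GLYMA_09G163800, the gene with the highest control level. The median log2 fold change of the 6 was 5.58, beside 0.0029 over the 30340 genes tested. Groups did not overlap in 6 of 6 genes, which the choice of the genes fixes, and 77.2% of all genes tested showed no overlap between Cd and control. By edgeR 75.9% of all genes tested were called in that contrast.

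The mean level in Cd was 22.0, 21.0 and 21.5 times that in Cd+OP for GLYMA_09G162500, GLYMA_09G162800 and GLYMA_09G163000, and 9.55, 7.77 and 6.38 times for GLYMA_09G163200, GLYMA_09G163300 and GLYMA_09G163800. The log2 fold changes for Cd+OP against Cd ran from -4.53 to -2.75 with a median of -3.90, beside 0.0011 over all genes tested, and 72.9% of all genes tested showed no overlap between these groups and 70.8% were called by edgeR. Of the excess over control that the Cd libraries had, Cd+OP roots kept 2.19, 2.92 and 2.39% in the 3 left-hand genes and 9.47, 11.3 and 9.89% in GLYMA_09G163200, GLYMA_09G163300 and GLYMA_09G163800. Both contrasts share the Cd libraries, so these values are not independent of each other.

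Control+OP against control gives OP in roots that had no Cd. The contrast itself was not used to choose the genes. It shares the control libraries with Cd against control, which was known at the choice, so its p-values are not independent of that choice. The 3 left-hand genes were lower with OP and the divergent pair was higher. GLYMA_09G162500, GLYMA_09G162800 and GLYMA_09G163000 fell by 0.96 ± 0.136, 0.68 ± 0.0828 and 0.96 ± 0.117 on the log2 scale (± SE, n = 3 per group, edgeR adjusted p = 2.07e-04, 5.06e-08 and 6.68e-05). GLYMA_09G163200 rose from 4.81 ± 1.001 to 6.87 ± 0.714 FPKM (mean ± SD, n = 3), a log2 fold change of 0.52 ± 0.0964 (edgeR adjusted p = 1.08e-04). GLYMA_09G163300 rose from 11.4 ± 0.995 to 14.8 ± 2.68 FPKM, a log2 fold change of 0.38 ± 0.124 (edgeR adjusted p = 0.0274). GLYMA_09G163800 fell by 0.17 ± 0.051 on the log2 scale (edgeR adjusted p = 0.00873), to 0.886 times the control mean in FPKM, with overlapping libraries. Without control replicate 2 its log2 fold change was -0.28, and without each other library in turn it stayed negative. Groups did not overlap in the other 5, nor in 65.4% of all genes tested. In edgeR's quasi-likelihood test with Benjamini-Hochberg adjustment over all genes tested, 2 of 6 members thus rose and 4 fell, and 62.2% of all genes tested were called in this contrast, 34.8% higher and 27.4% lower. A call for all 6 is therefore not far from what the whole table shows, and what the contrast adds is the direction and size of each change. The median log2 fold change over all genes tested was 0.0603, and 55.97% of calls were higher. Fitted on only the groups compared, these values were 0.0049 and 49.92%, so the all-gene split depends on the libraries fitted. In that fit GLYMA_09G163800 stood at -0.22 and GLYMA_09G163300 at 0.32 on the log2 scale.

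The rise of GLYMA_09G163300 did not hold under each alternative. Its adjusted p in edgeR was 0.0779 with no filter on low values, 0.0842, 0.0767 and 0.148 without control replicates 1, 2 and 3, and 0.0688, 0.0700 and 0.0723 without Cd replicates 1, 2 and 3, while the log2 fold change stayed above 0 (0.22 to 0.47 over all alternatives, adjusted p 7.12e-04 to 0.148). Control+OP library 3, at 17.9 FPKM, stood above the other 2 of its group, and without it the log2 fold change was 0.22 (edgeR adjusted p = 0.00246). It was also not called with the replicate number as a block (edgeR adjusted p = 0.0603). Without any 1 Cd library the all-gene median log2 fold change was 0.0033 (0.0603 in the reported fit), and that of GLYMA_09G163300 was 0.32.

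Cd+OP against control+OP gives Cd in roots that have the bacterium. It shares the Cd+OP libraries with a contrast known when the genes were chosen, so its p-values are not independent of that choice. All 6 genes rose, by 1.81 ± 0.127 for GLYMA_09G162500, 1.94 ± 0.0737 for GLYMA_09G162800 and 1.90 ± 0.110 for GLYMA_09G163000 on the log2 scale (± SE, n = 3 per group). The rises were 2.65 ± 0.074 for GLYMA_09G163200, 2.44 ± 0.107 for GLYMA_09G163300 and 1.39 ± 0.0503 for GLYMA_09G163800. The edgeR adjusted p ran from 1.15e-18 to 1.00e-06 over the 6 genes, while 67.0% of all genes tested were called in this contrast, 33.7% higher. No library of 1 group overlapped with the other in any member, which held for 70.2% of all genes tested. In mean FPKM the levels were 3.69, 4.06 and 3.94 times those of control+OP in the left-hand genes, 6.61 and 5.72 times in the divergent pair and 2.76 times in GLYMA_09G163800. The median log2 fold change of the 6 was 1.92, beside 0.0091 over all genes tested.

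Cd+OP against control gives how far roots with both treatments stood from untreated roots. For the 6 genes this change is the sum of those for Cd against control and Cd+OP against Cd, so it is given as a description, with no test. All 6 means were above control. GLYMA_09G163200 stood at 45.4 ± 0.8004 FPKM against 4.81 ± 1.001 and GLYMA_09G163300 at 84.8 ± 4.72 against 11.4 ± 0.995 (mean ± SD, n = 3), log2 fold changes of 3.16 and 2.82. For GLYMA_09G162500, GLYMA_09G162800, GLYMA_09G163000 and GLYMA_09G163800 the log2 fold changes were 0.85, 1.26, 0.94 and 1.22, or 1.89, 2.52, 2.01 and 2.45 times the control mean. Over all genes tested 59.8% were called in this contrast, 30.3% higher, and 64.0% had groups that did not overlap, as the 6 members did.

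**Figure D2:**
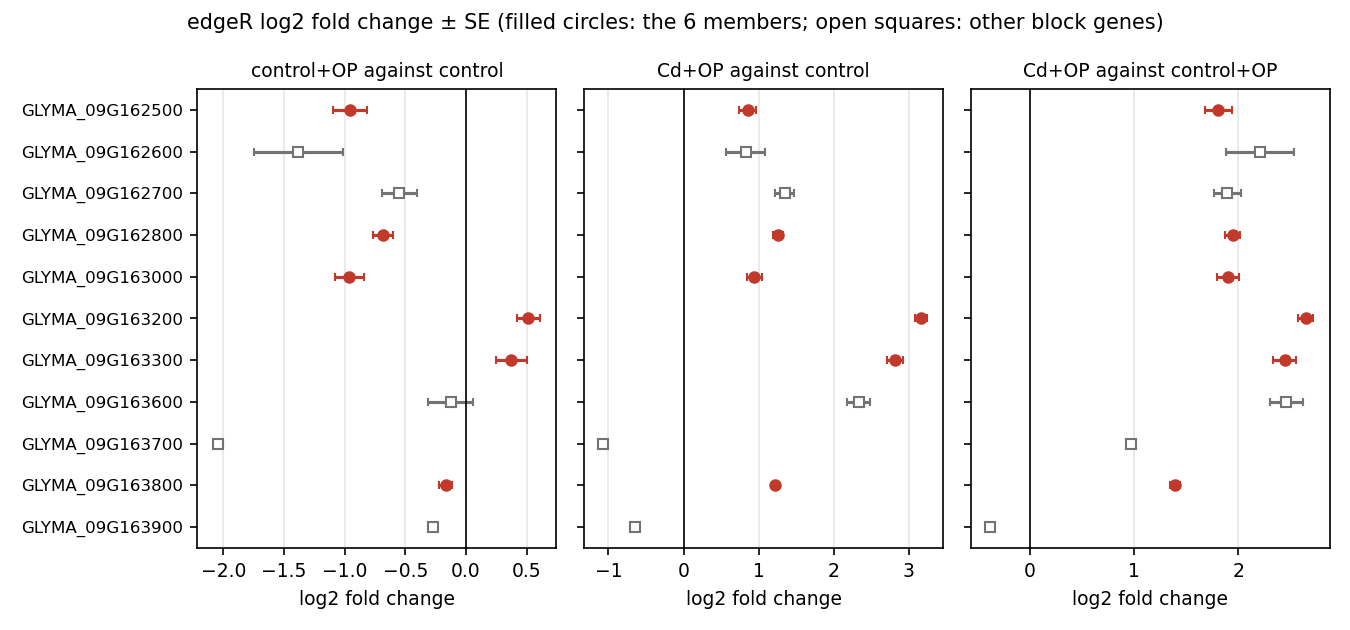
Log2 fold changes from edgeR with their SE (horizontal bars, n = 3 per group) for the 6 genes (filled circles) and 5 other protease inhibitor genes of the same block (open squares), from left to right along the chromosome as top to bottom. Without Cd, OP goes with lower values in GLYMA_09G162500, GLYMA_09G162800 and GLYMA_09G163000 and higher ones in GLYMA_09G163200 and GLYMA_09G163300, the same pair that lies highest among the 6 for Cd+OP against control, at 3.16 and 2.82, a panel that is a description for the 6 genes.

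The 6 genes kept no fixed ranking. In control the order from high to low was GLYMA_09G163800, GLYMA_09G163000, GLYMA_09G163300, GLYMA_09G162800, GLYMA_09G162500 and GLYMA_09G163200, and only GLYMA_09G162800 and GLYMA_09G162500 overlapped with each other. In Cd GLYMA_09G163200 moved above GLYMA_09G162500, and no neighbours in the order overlapped. In Cd+OP the order was GLYMA_09G163800, GLYMA_09G163300, GLYMA_09G163200, GLYMA_09G163000, GLYMA_09G162800 and GLYMA_09G162500, again with no overlap. In control+OP the neighbours GLYMA_09G163200 and GLYMA_09G162800 overlapped, as did GLYMA_09G162800 and GLYMA_09G162500.

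The summed level of the 6 genes was 122 ± 10.6 FPKM in control, 103 ± 9.43 in control+OP, 3793 ± 106 in Cd and 376 ± 4.92 in Cd+OP (mean ± SD, n = 3). As a share of all FPKM in a library that was 0.0266, 0.0226, 0.831 and 0.0823%. GLYMA_09G163800 made up 56.6 to 58.8% of the sum in control, 58.0 to 62.4% in control+OP, 27.9 to 29.5% in Cd and 44.3 to 46.1% in Cd+OP. The level of GLYMA_09G163200 relative to that of GLYMA_09G162800 was 0.441 to 0.614 in control, 1.06 to 1.54 in control+OP, 0.866 to 0.918 in Cd and 1.93 to 1.99 in Cd+OP, so the ratio was higher in each group with OP than in its counterpart without it. The same ordering held for GLYMA_09G163300 relative to GLYMA_09G163000, at 0.608 to 0.724, 1.51 to 1.74, 0.843 to 0.880 and 2.27 to 2.52. With 3 libraries a group an exact permutation test between 2 groups cannot go below p = 0.10, and these ratios, noticed in the data, were not tested.

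**Figure D3:**
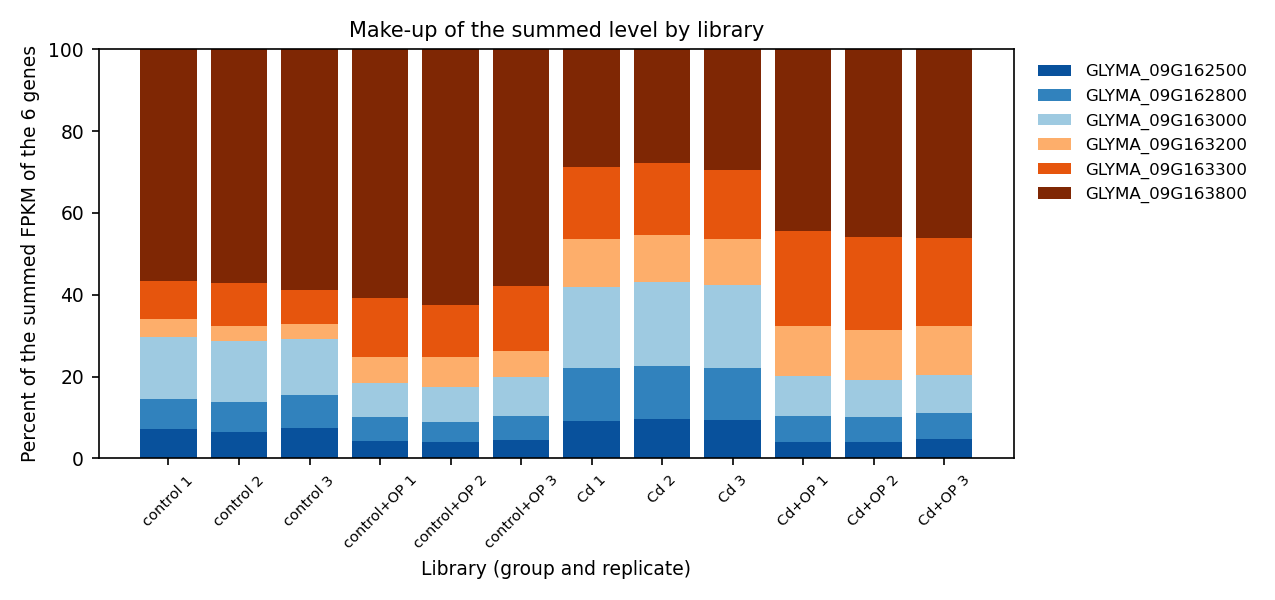
Share of each of the 6 genes in their summed FPKM, in percent, for each of the 12 libraries (bars). GLYMA_09G163800 takes 56.6 to 62.4% in the libraries without Cd and 27.9 to 29.5% with Cd alone, and GLYMA_09G163200 and GLYMA_09G163300 take larger shares in Cd+OP than the left-hand genes do.

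The members are part of a longer block. From GLYMA_09G162500 to GLYMA_09G163900 the table lists 14 genes over 130.4 kb, and 13 of them, the 6 members and 7 others, carry the same pair of inhibitor terms. The exception, GLYMA_09G162900, is annotated only with membrane terms and stood at no more than 0.0934 FPKM in any library. Of the 7 other inhibitor genes, 5 passed the filter. GLYMA_09G163100 did not, with a mean of 2.13 ± 0.517 FPKM in Cd and at most 0.605 in the other libraries, and GLYMA_09G163400 was listed at 0 in 11 libraries and at 6 counts in the remaining library, of Cd+OP.

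Of the 5, 3 behaved much like the members. GLYMA_09G162600 went from 0.515 ± 0.1503 to 50.4 ± 7.68 FPKM with Cd and stood at 0.996 ± 0.223 in Cd+OP. It passed the filter on low values only through the Cd libraries, so it had to differ there and its log2 fold changes, 6.53 and -5.70, are given with no test. GLYMA_09G162700 went from 10.9 ± 1.56 to 581 ± 14.8 FPKM and stood at 29.1 ± 0.471 in Cd+OP (log2 fold changes 5.74 ± 0.130 and -4.39 ± 0.119, edgeR adjusted p = 1.86e-10 and 8.49e-10). GLYMA_09G163600 went from 7.59 ± 1.24 to 369 ± 15.1 FPKM and stood at 40.2 ± 2.04 in Cd+OP (log2 fold changes 5.604 ± 0.158 and -3.27 ± 0.133, edgeR adjusted p = 9.81e-10 and 1.99e-08). GLYMA_09G162700, on the left, also fell with OP alone (log2 fold change -0.55 ± 0.145, edgeR adjusted p = 0.00988), while GLYMA_09G163600, on the right, changed by -0.13 ± 0.185 with an adjusted p of 0.586. The libraries of control and control+OP overlapped in GLYMA_09G162700 and GLYMA_09G163600. These neighbours may share reads with the members. The change with Cd differed between roots with and without OP in the 4 neighbours other than GLYMA_09G162600 by the interaction term of edgeR, which 63.8% of all genes tested passed.

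The other 2 block genes did not follow. GLYMA_09G163700, which lies 2897 bases from GLYMA_09G163800 on the same strand, stood at 205, 186 and 195 FPKM in control and 221, 233 and 229 in Cd, a log2 fold change of 0.22 ± 0.0352 (edgeR adjusted p = 4.44e-07). With OP it fell to 50.05, 45.3 and 46.6 FPKM without Cd and to 96.2, 97.3 and 99.3 with Cd (log2 fold changes -2.04 ± 0.0378 and -1.29 ± 0.0362, edgeR adjusted p = 2.74e-36 and 4.50e-30). Its convergent neighbour GLYMA_09G163600, 1059 bases away, is the gene whose mean FPKM with Cd was 48.65 times that of control. GLYMA_09G163900, at the right-hand end and 8387 bases from GLYMA_09G163800, went the other way: 306, 292 and 311 FPKM in control, 79.5, 80.8 and 79.0 in Cd, and 203, 203 and 202 in Cd+OP (log2 fold changes -1.92 ± 0.0341 for Cd against control and 1.27 ± 0.0338 for Cd+OP against Cd, edgeR adjusted p = 3.31e-37 and 7.28e-31). In untreated roots GLYMA_09G163900 and GLYMA_09G163700 made up most of the block's level: the members held 18.3 to 19.9% of the block's summed FPKM in control, 22.7 to 27.1% in control+OP, 73.9 to 74.9% in Cd and 50.1 to 50.8% in Cd+OP.

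**Figure D4:**
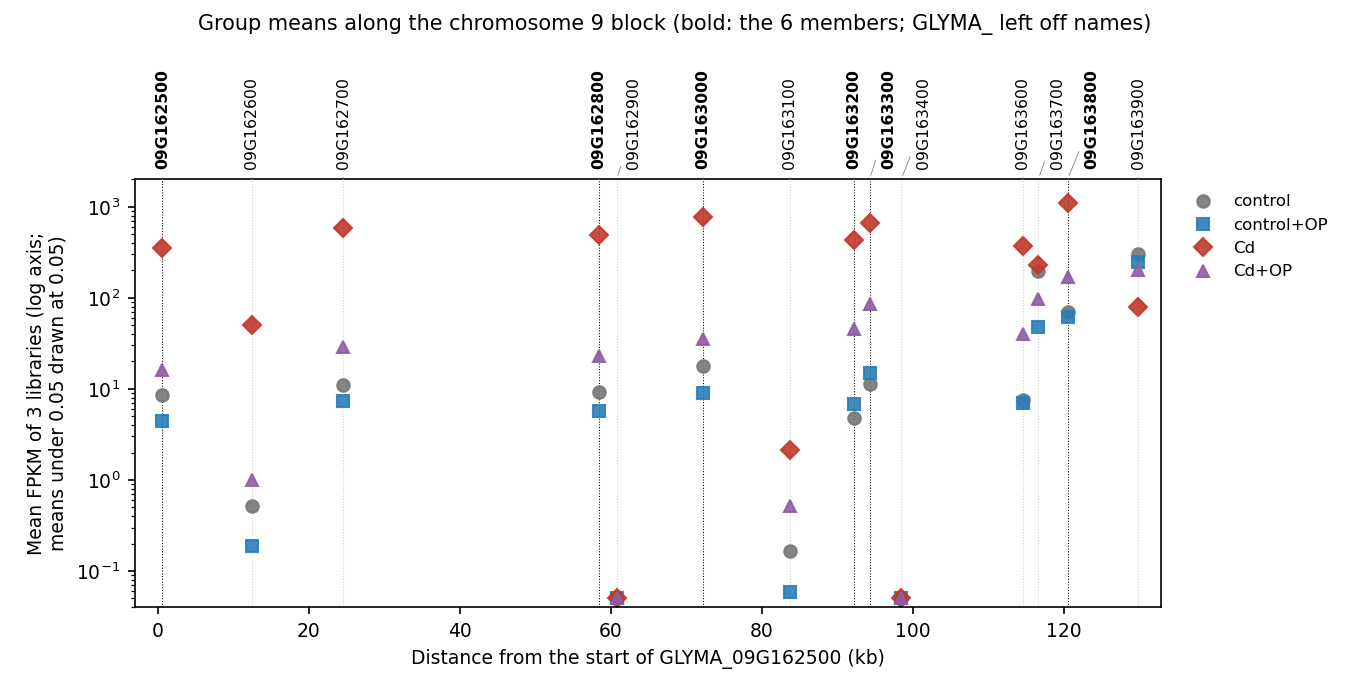
Mean FPKM of the 4 groups (symbols, 3 libraries each, log axis) for the 14 genes of the block against distance in kb from the start of GLYMA_09G162500; members are named in bold, and means under 0.05 FPKM are drawn at 0.05. Cd lies far above the other groups for the 6 members and for GLYMA_09G162600, GLYMA_09G162700 and GLYMA_09G163600, is close to control at GLYMA_09G163700 and lies lowest at GLYMA_09G163900.

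Of the 20 other genes of the region, GLYMA_09G162900 and those within 10 genes of the span of the members, 14 were tested. For Cd against control 6 of the 14 rose and 2 fell, with log2 fold changes from -1.32 to 1.30 and a median of 0.15, beside 37.6% higher and 38.3% lower over all genes tested. For Cd+OP against Cd 3 rose and 6 fell, from -2.18 to 1.34, beside 36.2% and 34.7% over all genes tested.

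Protease inhibitor genes elsewhere in the genome moved in both directions. The table holds 62 outside the region, 40 of them tested. With Cd 22 rose and 14 fell (55.0 and 35.0%, against 37.6 and 38.3% of all genes tested), with a median log2 fold change of 0.45 and a highest of 3.81. The lowest member, GLYMA_09G163800, stood at 3.97, but the members were chosen with their high levels in Cd known. Of the 22 that rose, 4 rose by a log2 of at least 2, and 15 were lower in Cd+OP than in Cd. The same shares over all genes that rose with Cd were not counted, and both contrasts use the Cd libraries. These 2 counts therefore cannot be read as a trait of protease inhibitors. For Cd+OP against Cd 36.2% of all genes tested rose and 34.7% fell. Of the 40 inhibitor genes, 13 rose and 20 fell in that contrast, with a median of -0.32. The most abundant were GLYMA_15G115300, annotated as an inhibitor of cysteine-type endopeptidases, with 440.3 ± 15.4 FPKM in control and 301 ± 9.51 in Cd, GLYMA_08G341400 with 333 ± 10.7 and 444 ± 8.95, and GLYMA_09G155500 with 236 ± 4.31 and 18.2 ± 2.01. The corresponding log2 fold changes were -0.54 ± 0.0324, 0.42 ± 0.0286 and -3.70 ± 0.0467 (edgeR adjusted p = 9.38e-19, 9.64e-17 and 1.25e-38).

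Outside the region, 23 genes carry just the members' 2 terms, and 15 were tested. With Cd 8 rose and 6 fell (53.3 and 40.0%), with a median of 0.42, beside 37.6 and 38.3% of all genes tested. With OP alone 5 rose and 9 fell (33.3 and 60.0%), with a median of -1.69, beside 34.8 and 27.4% of all genes tested. GLYMA_16G212400, on chromosome 16, came closest in shape among the 3 most abundant, with 103 ± 5.35 FPKM in control, 239 ± 19.1 in Cd, 28.4 ± 1.19 in Cd+OP and 13.8 ± 0.769 in control+OP. The others were GLYMA_08G341400 and its neighbour GLYMA_08G341300, which stood at 103 ± 2.94 FPKM in control, 61.0 ± 2.84 in Cd, 49.95 ± 4.18 in Cd+OP and 17.3 ± 0.763 in control+OP.

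The list for jasmonate and oxylipin synthesis holds 58 genes, 40 of them tested. With Cd 34 of 40 tested genes fell and 6 rose (85.0 and 15.0%), with a median log2 fold change of -1.14, beside 38.3% lower and 37.6% higher over all genes tested. For Cd+OP against Cd 32 rose and 5 fell (80.0 and 12.5%), with a median of 1.51, beside 36.2 and 34.7%. The 3 most abundant were the 9-lipoxygenase genes GLYMA_13G347700, at 936 ± 33.4 FPKM in control, 70.0 ± 3.88 in Cd and 692 ± 5.596 in Cd+OP, and LOX1.4 (GLYMA_07G007000), at 827 ± 29.6, 67.1 ± 0.590 and 438 ± 4.13, and GLYMA_19G044900, which is annotated as an allene-oxide cyclase of jasmonate synthesis. GLYMA_19G044900 stood at 168 ± 9.70 FPKM in control, 72.3 ± 3.42 in Cd and 322 ± 6.72 in Cd+OP (log2 fold changes -1.22 ± 0.034 and 2.08 ± 0.0345, edgeR adjusted p = 6.55e-30 and 9.96e-38). Lipoxygenases that act at the ninth carbon of the fatty acid are not those of jasmonate synthesis, so the list is broader than its name.

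Of 7 tested genes annotated with response to jasmonic acid, 5 fell and 1 rose with Cd, with a median of -0.78, beside 38.3% lower and 37.6% higher over all genes tested. For Cd+OP against Cd 5 rose and 2 fell, beside 36.2 and 34.7%. Of 44 tested genes annotated with response to wounding, 26 fell and 13 rose with Cd (59.1 and 29.6%), with a median of -0.32, and 29 rose and 9 fell for Cd+OP against Cd (65.9 and 20.5%), with a median of 0.67. The most abundant of the wounding list, GLYMA_15G179600, annotated also with regulation of jasmonic acid signalling, stood at 227 ± 4.24 FPKM in control, 201 ± 10.01 in Cd and 423 ± 8.30 in Cd+OP. The part of these genes in the members' levels was not tested.

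**Figure D5:**
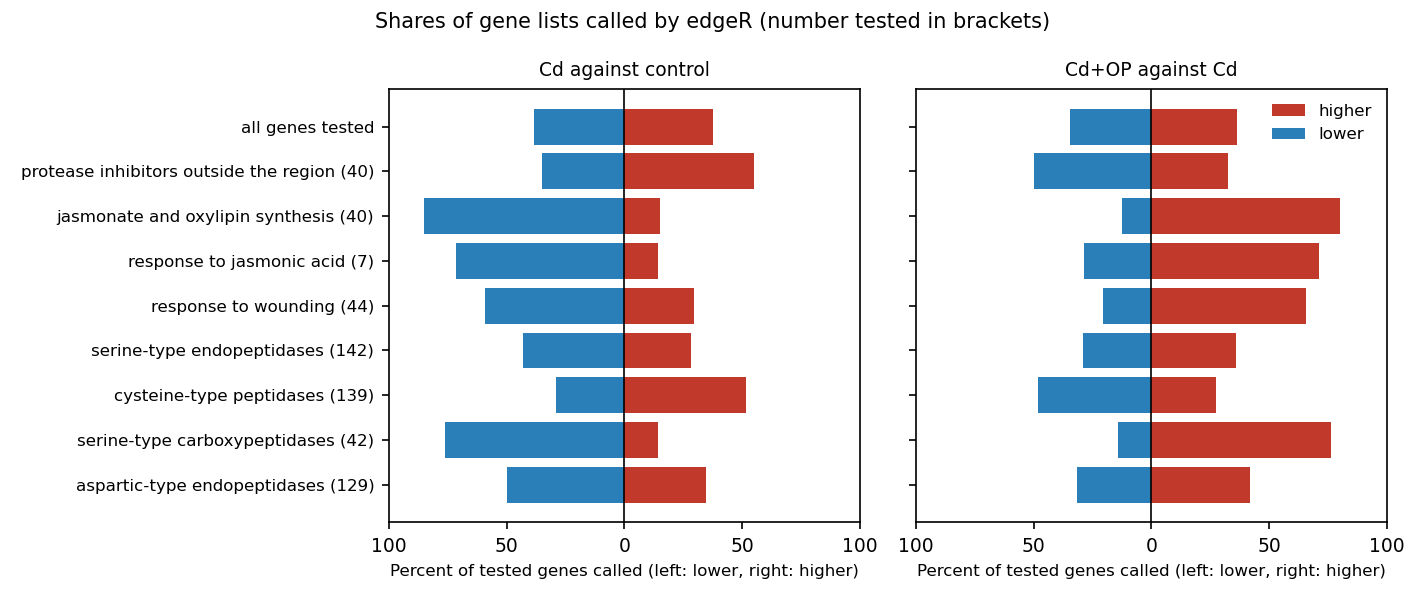
Percent of tested genes called higher (right, red) and lower (left, blue) by edgeR for Cd against control and for Cd+OP against Cd, for all genes and 8 annotation lists with their number tested. Genes of jasmonate and oxylipin synthesis are 85.0% lower with Cd and 80.0% higher in Cd+OP against Cd, while protease inhibitors outside the region are 55.0% higher and 20 of 40 lower.

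Likeness to the members' mean pattern was measured as the root mean square difference of centred log2(FPKM + 1) over the 12 libraries, among 30340 genes. The 6 most similar genes outside the members were GLYMA_09G163600 (0.240) and GLYMA_09G162700 (0.247) of the same block, GLYMA_03G033100 (0.341), annotated as a prenyltransferase, GLYMA_15G145600 (0.351), annotated with abscisic acid binding, and the fatty acid binding genes GLYMA_18G032300 (0.352) and GLYMA_18G032800 (0.368). The members themselves lay between 0.274 for GLYMA_09G162800 and 0.599 for GLYMA_09G163800. GLYMA_03G033100 stood at 0.959 ± 0.299 FPKM in control, 0.956 ± 0.281 in control+OP, 52.7 ± 2.46 in Cd and 5.66 ± 0.304 in Cd+OP. GLYMA_09G163900 ranked 29019 of 30340.

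Total counts were 49904227 to 57693211 per library, with 42224 to 43313 genes above 0, and Pearson's r of log-scale counts between replicates of the same group was 0.985 to 0.992, taken over genes, which are not independent replicates. Of 12 genes annotated with the Casparian strip, a structure of the root endodermis, 10 had a mean of at least 1 FPKM. Their summed level was 128 to 134 FPKM in control, 131 to 139 in control+OP, 98.1 to 101 in Cd and 126 to 133 in Cd+OP, while 9 of the 10 fell with Cd in edgeR and the median log2 fold change of the 10 was -4.69 for Cd against control and 5.16 for Cd+OP against Cd. Lists for other tissues also differed between groups. The nodule list (26 genes, 24 of them with a mean of at least 1 FPKM) summed to 555 to 588 FPKM in control, 1669 to 1725 in control+OP, 149 to 173 in Cd and 271 to 284 in Cd+OP. Gene by gene the nodule list moved otherwise than its sum: the median log2 fold change of the 24 genes was 5.62 for control+OP against control (21 rose, 2 fell), 0.08 for Cd against control (6 rose, 7 fell) and 1.10 for Cd+OP against control (16 rose, 3 fell). The photosystem list for green tissue (137 genes, 31 of them with a mean of at least 1 FPKM) summed to 220.3 to 235 FPKM in control, 142 to 148 in control+OP, 58.8 to 60.1 in Cd and 103 to 107 in Cd+OP, with a median of -2.21 for Cd against control (28 of 31 fell). The nutrient reservoir list for seed (103 genes, 45 of them with a mean of at least 1 FPKM) summed to 875 to 940.5, 1183 to 1220.4, 414 to 435 and 1087 to 1098 FPKM, with a median of -1.36 for Cd against control (26 of 45 fell, 14 rose). Beside these counts, 38.3% of all genes tested fell and 37.6% rose for Cd against control. The shares were 34.8% higher and 27.4% lower for control+OP against control, and 30.3% higher for Cd+OP against control. Of the lists for other tissues 2 photosystem and 3 reservoir genes were at 0 in every library, and no nodule gene was. These sums and that of the Casparian strip list were lowest in Cd, where the members were highest, and their part in the members' levels was not tested. In whole roots, more cells of a type that makes these inhibitors and more RNA per cell cannot be told apart.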

How the data were processed

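Per the labels' protocols, total root RNA came from a TRIzol extraction and was read on a NovaSeq machine. The deposited table gives, per the file headers, FPKM and whole-number counts of 49128 genes in 12 libraries. No source used here names an aligner, counter, build or annotation release. Low deposited counts favoured multiples of 4 (10000 values at 4, 5019 at 3 and 3231 at 5), so they may not be 1 per read, no counting interval is given, and division by 4 was tried.

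EdgeR 4.0.16 in R 4.3.3 was run on the counts with TMM scaling, 1 mean per group over all 12 libraries, robust quasi-likelihood tests (two-sided), and Benjamini-Hochberg adjustment over the 30340 genes whose mean reached 1 FPKM, at a threshold of 0.05. SEs come from the fold change and its F value (size over root of F). The common biological coefficient of variation was 0.0796, and 0.03235 with the counts divided by 4, so it depends on the unit of the counts. Alternatives were median of ratios scaling, DESeq2 1.42.0, limma 3.58.1 on log2(FPKM + 1) and log2(FPKM + 0.1), other filters, only the groups compared, a replicate block, and leaving out each library. All tools were also run on simulated counts with few genes changed and no excess of multiples of 4. Those settings differ from these data, so that run cannot give the error rates here.

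The members and all lists were chosen with earlier results of these data known. Lists were set by Gene Ontology terms of the table, and the list of genes with just the members' 2 terms was added after the annotation was seen. Genes named are the members, other inhibitor genes of the block, the 3 most abundant genes of a list, and the 6 of most similar pattern. GLYMA_09G162900, GLYMA_09G163100 and GLYMA_09G163400 are described without a test. Tests were planned for the members in Cd+OP against control and for GLYMA_09G162600, and are not reported, since the former follows from the values known at the choice and the latter passed the filter only through the Cd group. Of 49128 identifiers 0 matched the RefSeq name table, and sequences are not used here. No 2 libraries of a group held identical counts.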

Additional observations from a re-analysis of the deposited data

Results flagged for a closer look

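GLYMA_09G163200 and GLYMA_09G163300 stood out because OP went with opposite directions without and with Cd. For GLYMA_09G163200 each control+OP library lay above each control library (log2 fold change 0.52), while each Cd+OP library lay below each Cd library (log2 fold change -3.33). For GLYMA_09G163300 the log2 fold changes were 0.38 and -3.03. This difference between the 2 settings was not tested, since the values of the second contrast were known when the genes were chosen.

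Among the other inhibitor genes of the block, the change with Cd differed between roots with and without OP by the interaction term in edgeR in 4 genes. The interaction was -3.84 ± 0.186 (log2 ± SE) for GLYMA_09G162700 and -3.15 ± 0.227 for GLYMA_09G163600 (edgeR adjusted p = 9.73e-08 and 1.96e-06), a smaller rise with Cd where OP was present. It was 0.75 ± 0.0515 for GLYMA_09G163700 and 1.54 ± 0.0467 for GLYMA_09G163900 (edgeR adjusted p = 2.12e-16 and 1.48e-28). Of all genes tested 63.8% were called for the interaction. For GLYMA_09G162600 the value was -4.32, given with no test, since this gene passed the filter on low values only through the Cd libraries.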

How the results depend on the processing

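Over 21 alternatives, the 6 members kept their direction for OP without Cd, for Cd+OP against control+OP and for Cd+OP against control, and each call in the former pair held except that of GLYMA_09G163300 for OP without Cd, where 5 or 6 of 6 members were called without 1 library. Replicate numbers did not pair the libraries: deviations of same-numbered libraries correlated at -0.022 to 0.056 over 18 pairs. With the replicate block 5 members were called for OP without Cd and 6 for Cd+OP against control+OP, and GLYMA_09G163300 had a log2 fold change of 0.37 (edgeR adjusted p = 0.0603). The members' median log2 fold change for Cd against control was 5.47 with limma on log2(FPKM + 1) and 5.47 to 5.58 without 1 library, and for Cd+OP against Cd it was -3.78 and -3.82 with limma at pseudocounts of 1 and 0.1. The pseudocount shrinks low values by construction. With a filter of 5 FPKM 16336 genes were tested, against 30340 in the reported fit, so the numbers called have different totals. All genes called with that filter numbered 11577 for control+OP against control (18861 in the reported fit) and 12309 for Cd+OP against control+OP (20330). They numbered 11485 for Cd+OP against control (18131), 13123 for Cd against control (23022) and 12785 for Cd+OP against Cd (21483). Of the genes on the annotation lists 82.4% were called with Cd in the reported fit, 86.9% with that filter and 66.1% with none. Beside these, 75.9% of all genes tested were called with Cd in the reported fit, and 13123 of 16336 with the filter of 5 FPKM. No all-gene share is given here for the fit with no filter. Read sharing between related copies was not measured.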

Other observations

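The classes of protease genes did not move alike. Of 139 tested genes annotated as cysteine-type peptidases, 72 rose and 40 fell with Cd (median log2 fold change 0.20), and 38 rose and 67 fell for Cd+OP against Cd (median -0.16). These were 51.8 and 28.8% with Cd, beside 37.6% higher and 38.3% lower over all genes tested. For Cd+OP against Cd they were 27.3 and 48.2%, beside 36.2 and 34.7%. Of the 3 most abundant, GLYMA_15G082200 stood at 10.4 ± 0.495 FPKM in control, 18.9 ± 0.689 in control+OP, 380.5 ± 1.12 in Cd and 115 ± 2.13 in Cd+OP, a log2 fold change of 5.19 ± 0.0413 with Cd (edgeR adjusted p = 1.18e-49), whereas GLYMA_14G085800 and GLYMA_17G239000 fell with Cd by 0.48 ± 0.0307 and 1.26 ± 0.0299 on the log2 scale (edgeR adjusted p = 1.28e-17 and 1.01e-32).

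Serine-type carboxypeptidases, which trim proteins from their end, fell in 32 of 42 tested genes and rose in 6 with Cd (median -1.19), and the counts were 32 higher and 6 lower for Cd+OP against Cd (median 1.15). With Cd that was 76.2% lower and 14.3% higher, beside 38.3 and 37.6% of all genes tested. For Cd+OP against Cd it was 76.2% higher and 14.3% lower, beside 36.2 and 34.7%. The most abundant, GLYMA_09G226700, stood at 30.0 ± 0.247 FPKM in control, 14.2 ± 0.718 in Cd and 23.5 ± 0.261 in Cd+OP. Serine-type endopeptidases fell in 61 of 142 and rose in 40 with Cd (median -0.10), and aspartic-type endopeptidases fell in 64 of 129 and rose in 45 (median -0.17), beside 38.3 and 37.6% of all genes tested. With OP alone, serine-type endopeptidases rose in 75 of 142 and fell in 21 (52.8 and 14.8%), beside 34.8 and 27.4% of all genes tested. Whether any of these enzymes meets the chromosome 9 inhibitors was not tested.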
